A study of Mus musculus with 4 samples.

Results

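The transcripts described here are those of 10 signalling proteins that recruit or sustain leukocytes, as sequenced from sorted muscle stem cells (MuSCs), the Pax7-expressing precursors that lie along muscle fibres. The set was named by gene symbol: the neutrophil attractants Cxcl1, Cxcl2 and Cxcl5, the monocyte attractants Ccl2 and Ccl7, the interferon-inducible Cxcl10, the homeostatic chemokines Cxcl12 and Cxcl14, the membrane-bound chemokine Cx3cl1, and Csf1, which is a macrophage growth factor rather than a chemokine. All 10 symbols were found, on 1 row each, among 11603 genes in the table. The cells came from hindlimb muscle of male C57BL/6 mice aged 4 to 5 months and were sorted as VCAM1-positive and negative for CD31, CD45 and Sca1. There were 2 libraries labelled conditional Hairless knockout and 2 labelled control, numbered 1 and 2 in each group. The sources used here give neither the Cre driver, the exons deleted, any inducing agent nor the number of animals behind a library. A p-value below therefore weighs a difference against the spread between these samples alone, and that spread may be technical. The comparison asks which transcripts depend on Hairless (Hr), a nuclear corepressor.

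Chemokines are small secreted proteins named for the spacing of their conserved cysteines (CC, CXC and CX3C), and they act on G-protein-coupled receptors carried mainly by leukocytes. In injured muscle they draw in neutrophils and then monocytes, whose macrophage progeny clear debris and support regeneration. Many inflammatory chemokine genes are early targets of the transcription factor NF-kappa-B and can be induced while tissue is being dissociated, so a level measured in sorted cells need not be the level in resting muscle.

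Values are RPKM (reads corrected for the length of the gene and the size of the library), which allow levels to be compared between genes. The knockout libraries held 34101213 and 21757211 reads on the listed genes and the control libraries 26990809 and 22577330. Hr itself had 7.15 and 7.90 RPKM in the libraries labelled knockout, against 9.28 and 8.94 RPKM in the control libraries. Those levels show that the transcript was still present. Both knockout values were below both control values, an arrangement seen in 26.2% of all genes, and the limma adjusted p was 0.431. As Hr was not called, every direction below rests on the labels. All 8 MuSC markers examined were measured, among them Pax7 (9.03 and 13.1 RPKM in knockout, 8.23 and 12.9 RPKM in control). By the authors' deposited q-value 2 of the 8 passed 0.05, Sdc4 higher (3031 and 3260 RPKM in knockout, 2121 and 1582 RPKM in control) and Itga7 lower (61.9 and 49.998 RPKM in knockout, 90.8 and 118 RPKM in control). Over all genes 3.59% were higher and 4.26% lower by that q-value. Of the sort antigens that should be absent, Ptprc (CD45) was near 0, with a highest value of 0.0399 RPKM. Pecam1 (CD31) was detected, with 5.51 and 9.66 RPKM in knockout and 8.04 and 11.9 RPKM in control. The mean of Pecam1 over the 4 libraries was 8.77 RPKM, beside 10.8 RPKM for Pax7. Ly6a (Sca1) had 77.4 and 80.7 RPKM in knockout and 47.9 and 49.5 RPKM in control, although the cells were sorted as Sca1-negative.

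Cxcl1, a ligand of the neutrophil receptor Cxcr2, was by far the most abundant of the 10. With 1975 and 2148 RPKM in knockout and 1502 and 1044 RPKM in control, its mean level ranked 27 among the 11603 genes. It alone gave 80.3% and 81.9% of the summed RPKM of the 10 genes in knockout, and 76.4% and 81.0% in control. Next came Cxcl2, Ccl7 and Ccl2, whose means over the 4 libraries were 122, 90.5 and 86.0 RPKM. Csf1 and Cxcl10 followed with 34.1 and 29.5 RPKM, then Cxcl5, Cx3cl1 and Cxcl14 with 17.7, 17.1 and 13.5 RPKM, and Cxcl12 was lowest with 6.07 RPKM. In this order the ranges over the 4 libraries overlapped between each pair of neighbours, except between Cxcl1 and Cxcl2 and between Ccl2 and Csf1. The least sampled value was 227 reads, for Cxcl14 in control 2.

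**Figure D1:**
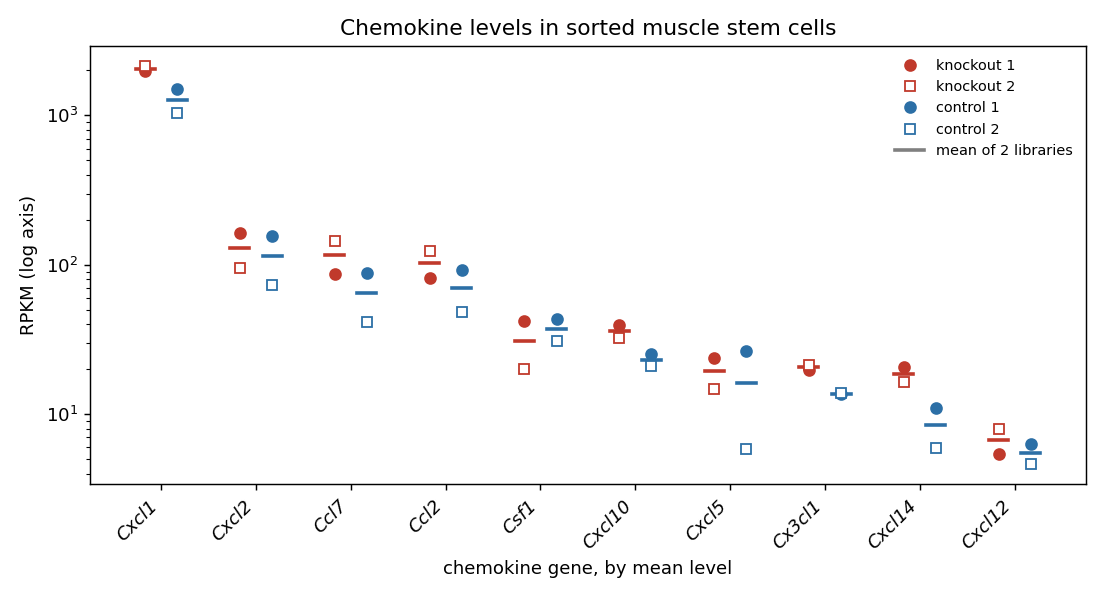
RPKM (log axis) of the 10 genes in each library, knockout in red on the left of each gene and control in blue on the right, with bars at the mean of 2 libraries. Cxcl1 lies between 1044 and 2148 RPKM, above every other gene, and the control 2 symbol (open blue square) is the lowest of the 4 for 8 of the 10 genes.

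The regions before the start sites of several of these genes are shown because 4 of the 7 with a window hold a kappa-B match. Windows of 250 bases before the annotated start were taken from RefSeq (GRCm38.p6) and were available for 7 of the 10 genes: Csf1, Cx3cl1, Cxcl1, Cxcl2, Cxcl10, Cxcl12 and Cxcl14. Distances are counted from that start. The windows of Cxcl1, Cxcl2 and Cx3cl1 end at 90891244, 90903898 and 94772179, inside the gene spans given below, which come from the deposited data. Capitals mark matches on either strand to the kappa-B consensus, the 10-base sequence that NF-kappa-B recognises, to the AP-1 motif TGANTCA and to the interferon-stimulated response element TTTCNNTTTC. No 2 different motifs overlapped in these windows. Cxcl1 and Cxcl2 are adjacent inflammatory genes, Cxcl10 holds all 3 motifs, and Cxcl14 is the gene of the 10 with the lowest q-value in the authors' deposited table.
Cxcl1, chr5:90890995-90891244, plus strand: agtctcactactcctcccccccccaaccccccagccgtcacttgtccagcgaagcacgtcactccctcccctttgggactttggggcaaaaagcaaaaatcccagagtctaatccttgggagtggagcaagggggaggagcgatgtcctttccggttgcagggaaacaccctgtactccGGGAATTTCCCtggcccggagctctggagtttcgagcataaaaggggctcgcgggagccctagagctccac
Cxcl2, chr5:90903649-90903898, plus strand: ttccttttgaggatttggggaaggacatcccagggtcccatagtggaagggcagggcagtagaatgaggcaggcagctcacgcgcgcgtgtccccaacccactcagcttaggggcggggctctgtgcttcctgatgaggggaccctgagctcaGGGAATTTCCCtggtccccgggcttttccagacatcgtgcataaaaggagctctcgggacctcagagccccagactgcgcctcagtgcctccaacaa
Cxcl10, chr5:92348890-92349139, minus strand: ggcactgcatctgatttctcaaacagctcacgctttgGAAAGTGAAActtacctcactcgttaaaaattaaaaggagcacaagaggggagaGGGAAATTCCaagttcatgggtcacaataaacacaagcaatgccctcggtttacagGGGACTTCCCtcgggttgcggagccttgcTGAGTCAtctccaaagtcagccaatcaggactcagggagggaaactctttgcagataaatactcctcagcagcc
Cxcl14, chr13:56296552-56296801, minus strand: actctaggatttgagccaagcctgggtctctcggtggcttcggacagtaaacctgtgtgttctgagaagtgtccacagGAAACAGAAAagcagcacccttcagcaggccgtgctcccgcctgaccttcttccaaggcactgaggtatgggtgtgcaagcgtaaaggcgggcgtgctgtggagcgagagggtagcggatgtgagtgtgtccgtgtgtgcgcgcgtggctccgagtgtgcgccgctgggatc

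In Cxcl1 and Cxcl2 the capital run is a pair of kappa-B matches, one on each strand and offset by a single base. The match on the coding strand begins 71 bases before the RefSeq start in Cxcl1 and 97 bases before it in Cxcl2. Cxcl3, a further gene of that cluster, holds the same run with its match 73 bases before the start. In Cxcl10 the kappa-B matches begin 159 and 103 bases before the start, the AP-1 match 74 bases before it and the interferon element 213 bases before it, and Cxcl14 holds an interferon element 172 bases before the start and no kappa-B match. Csf1 holds a kappa-B match 154 bases before its start, whereas the windows of Cx3cl1 and Cxcl12 hold none of the 3 motifs. In all, 4 of the 7 genes had a kappa-B match, 1 an AP-1 match and 2 an interferon element, and of all 32851 RefSeq windows 3.9%, 6.75% and 2.98% held them. A match describes these letters and is not evidence of binding.

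After adjustment over all 11603 genes, limma on log2(RPKM + 0.5) called 0 of the 10 genes in either direction at an adjusted p under 0.05. The background was 0.0% of all genes called higher and 0.00862% called lower, which is a single gene. Fits with a library left out keep a lone library in a group, so they cannot decide whether that call holds. With limma-voom on reads recovered from the RPKM, 0 of the 10 were called as well. At an unadjusted limma p under 0.05, 4 of the 10 were higher and 0 lower, where 10.3% of all genes were higher and 7.69% lower. These 4 were Cxcl14, Cx3cl1, Cxcl10 and Cxcl1, and they were also the 4 whose knockout values both stood above both control values, an arrangement seen in 25.0% of all genes. The reverse arrangement was seen in 0 of the 10 and in 26.2% of all genes. The median log2 fold change of the 10 was 0.58, beside -0.01 over the whole table. By the authors' deposited q-value, 1 of the 10, Cxcl14, was higher at a threshold of 0.05 and 0 were lower, where 3.59% of all genes were higher and 4.26% lower. Scaling the libraries by the reads listed moved the median of all genes by -0.19, and the values here are on the authors' scale. The library sizes implied by the authors' RPKM and the gene lengths were 75.7% and 75.5% of the reads listed in knockout, and 85.9% and 92.4% in control. All 10 genes were lower on the other scale. There Cxcl14 was at 0.89, Ccl7 at 0.65, Cxcl1 at 0.48, Cxcl10 at 0.38 and Ccl2 at 0.35. Cx3cl1 was at 0.33, Cxcl5 at 0.32, Cxcl12 at 0.043, Cxcl2 at -0.017 and Csf1 at -0.56.

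**Figure D2:**
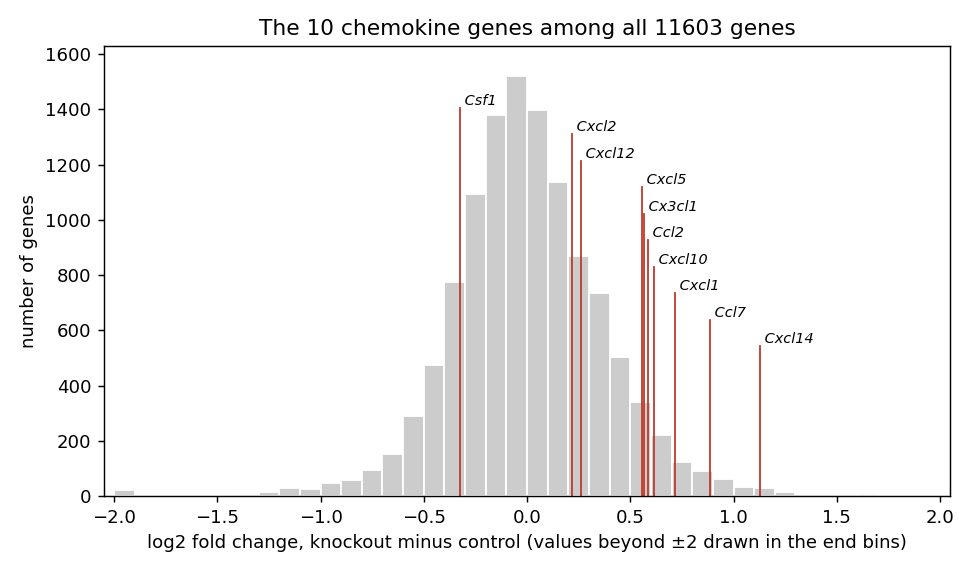
Number of genes (vertical axis) by log2 fold change, knockout minus control, in bins of the log2(RPKM + 0.5) scale (horizontal axis), with the 10 genes as red lines whose heights carry no value. Csf1 is at -0.32, left of the centre, and the other 9 are between 0.22 and 1.13, right of it, while none passed the test over all genes.

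Among the neutrophil attractants, Cxcl1 was higher in both knockout libraries (1975 and 2148 RPKM) than in either control library (1502 and 1044 RPKM). The means were 2062 ± 122 RPKM in knockout and 1273 ± 324 RPKM in control (SD, n = 2 each). Its log2 fold change was 0.72 (standard error 0.23, limma adjusted p 0.218), and the authors' deposited q-value was 0.443. Without control 2, the lowest library, the log2 fold change was 0.46.

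Cxcl2, which shares the receptor Cxcr2 with Cxcl1, had 163 and 95.3 RPKM in knockout, against 157 and 73.1 RPKM in control. The groups overlapped, and library 1 of each group stood above library 2. Its log2 fold change of 0.22 (standard error 0.42, limma adjusted p 0.817) turned to -0.017 when the libraries were scaled by the reads listed, to -0.33 without control 2 and to -0.17 without knockout 1. Cxcl5, another Cxcr2 ligand, had 23.9 and 14.7 RPKM in knockout, against 26.5 and 5.86 RPKM in control. Its control values thus spanned its knockout values, with a log2 fold change of 0.56 (standard error 0.67, limma adjusted p 0.694) that became -0.49 without control 2. Within a library the ratio of Cxcl1 to Cxcl2 was 12.1 and 22.5 in knockout and 9.56 and 14.3 in control, so it was higher in library 2 of either group.

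Cxcl1, Cxcl2 and Cxcl5 lie in 1 cluster on the plus strand of chromosome 5 (mm10), at 90891241 to 90893115, 90903871 to 90905938 and 90759360 to 90761624. Cxcl3, the gene of this cluster at 90786103 to 90789600, had 60.5 and 36.8 RPKM in knockout, against 43.9 and 10.3 RPKM in control, again with library 1 above library 2 in both groups. Its log2 fold change was 1.13 (standard error 0.65, limma adjusted p 0.417) and 0.11 without control 2. Of the 50-base words in annotated Cxcl2 transcripts, 5.84% also occur in those of Cxcl3, so a small part of their reads could be exchanged. Of the words of Cxcl1 transcripts 0% occur in any other annotated gene, and of those of Cxcl5 0.693% occur in genes outside the cluster.

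The monocyte attractants Ccl2 and Ccl7, both ligands of Ccr2, lie next to each other on chromosome 11 (82035571 to 82037453 and 82045712 to 82047525, plus strand). Ccl2 had 81.4 and 123 RPKM in knockout, against 91.6 and 48.2 RPKM in control. Ccl7 had 87.1 and 145 RPKM in knockout, against 88.7 and 41.2 RPKM in control. In both genes knockout 2 was highest and control 2 lowest, and knockout 1 was below control 1, so the groups overlapped.

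Log2 fold changes were 0.59 for Ccl2 (standard error 0.35, limma adjusted p 0.427) and 0.89 for Ccl7 (standard error 0.41, limma adjusted p 0.326). Without control 2 these became 0.13 and 0.34. The ratio of Ccl7 to Ccl2 within a library was 1.07 and 1.18 in knockout and 0.969 and 0.854 in control, a range of values narrower than that of either gene. Ccl11 (eotaxin), the attractant of eosinophils located beyond Ccl7 at 82057823 to 82062955, had 75.1 and 110 RPKM in knockout, against 59.6 and 32.3 RPKM in control. Its groups did not overlap, and the log2 fold change was 1.04 (standard error 0.33, limma adjusted p 0.216), or 0.60 without control 2.

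**Figure D3:**
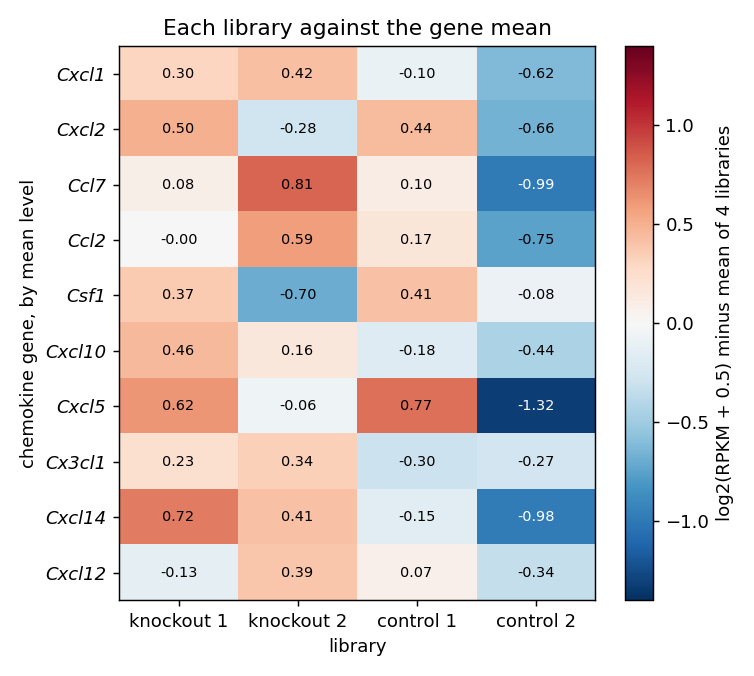
Heat map of log2(RPKM + 0.5) minus the mean of the 4 libraries for each of the 10 genes (rows, by mean level) in each library (columns, knockout left of control). Control 2 is below the gene mean throughout, from -0.08 in Csf1 to -1.32 in Cxcl5, whereas control 1 and knockout 1 are close to each other in Cxcl2, Ccl7 and Csf1.

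Control 2 held the lowest of the 4 values for 8 of the 10 genes, a count for which the share over all genes was not computed. Control 1 stood above control 2 for 9 of the 10, where this was so for 49.2% of all genes. The RPKM summed over the 9 genes other than Cxcl1 was 483 and 476 in knockout, against 463 and 245 in control. Cxcl2, Ccl7 and Ccl2 make up most of that sum, and in Cxcl10 and Cx3cl1 control 1 was nearer to control 2 than to either knockout library. The exceptions to the first count were Csf1, lowest in knockout 2, and Cx3cl1, lowest in control 1 (13.5 RPKM, beside 13.9 RPKM in control 2).

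Cxcl14, a chemokine of epithelia and muscle whose receptor is less settled than those of the others, lies on chromosome 13 (56288647 to 56296551, minus strand). It had 20.5 and 16.4 RPKM in knockout, against 11.0 and 5.97 RPKM in control, from 967 and 491 reads in knockout and 466 and 227 reads in control. Both knockout values exceeded both control values, and the means of 18.5 ± 2.93 RPKM in knockout and 8.49 ± 3.58 RPKM in control (SD, n = 2 each) differed 2.17-fold. On the log2 scale the change was 1.13 (standard error 0.30, limma adjusted p 0.189), while the authors' deposited q-value was 0.0183. Over the libraries left out in turn, it ranged from 0.71 without control 2 to 1.54 without control 1.

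Cxcl12, the ligand of Cxcr4 that retains leukocytes and progenitors in their niches, lies on chromosome 6 (117168535 to 117181367, plus strand). It had 5.40 and 7.97 RPKM in knockout, against 6.30 and 4.62 RPKM in control, with overlapping groups. The log2 fold change was 0.26 (standard error 0.25, limma adjusted p 0.619), and it was 0.057 without control 2 and 0.00048 without knockout 2.

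Cxcl10, which attracts activated T cells through Cxcr3 and is induced by interferon, lies on chromosome 5 apart from the neutrophil cluster (92346638 to 92348889, minus strand). It had 39.5 and 32.2 RPKM in knockout, against 25.4 and 21.02 RPKM in control, so the groups did not overlap. For Cxcl10 the log2 fold change was 0.62 (standard error 0.18, limma adjusted p 0.195), or 0.38 when scaled by the reads listed, and the authors' deposited q-value was 0.399. Cxcl10 lies opposite exons of Art3, with which it shares 3.58% of its 50-base words; whether counting used the strand is not given in the sources used here. Art3 itself had 6.58 and 6.63 RPKM in knockout and 6.38 and 7.66 RPKM in control, below Cxcl10 in every library.

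Cxcl9, the related Cxcr3 ligand, had 4.21 and 1.94 RPKM in knockout, against 1.52 and 1.43 RPKM in control. Of 17 interferon pathway genes 16 were measured, 0 were called by limma, and 9 had both knockout values above both control values and 0 below (25.0% and 26.2% of all genes), with a median log2 fold change of 0.60 beside -0.01 over all genes. By the authors' deposited q-value 2 of them, the transcription factor genes Irf3 and Irf9, were higher and 0 lower, where 3.59% and 4.26% of all genes were. Irf3 had 29.1 and 31.6 RPKM in knockout, against 19.0 and 20.3 RPKM in control. The 3 with the highest level were Gbp2, a guanylate-binding protein (106 and 51.7 RPKM in knockout, 67.5 and 32.2 RPKM in control), Bst2, which tethers virions (65.7 and 57.5 RPKM in knockout, against 33.8 and 35.6 RPKM in control), and Isg15, a ubiquitin-like modifier (69.0 and 59.6 RPKM in knockout, against 30.5 and 29.3 RPKM in control). Cxcl10 shared with Bst2 and Isg15 the arrangement of both knockout values above both control values, whereas Gbp2 overlapped between groups.

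Cx3cl1 (fractalkine), a transmembrane chemokine that is shed to attract Cx3cr1-bearing monocytes, lies on chromosome 8 (94772009 to 94782423, plus strand). It had 19.8 and 21.4 RPKM in knockout, against 13.5 and 13.9 RPKM in control. This was the least variable of the 4 non-overlapping genes, with means of 20.6 ± 1.13 RPKM in knockout and 13.7 ± 0.240 RPKM in control (SD, n = 2 each). For Cx3cl1 the log2 fold change was 0.57 (standard error 0.14, limma adjusted p 0.177), the authors' deposited q-value was 0.181, and the change was between 0.51 and 0.62 with each library left out and 0.33 when the libraries were scaled by the reads listed.

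Csf1, the macrophage colony-stimulating factor, lies on chromosome 3 (107741048 to 107760469, minus strand) and was the 1 gene of the 10 with a negative log2 fold change. It had 42.3 and 19.9 RPKM in knockout, against 43.3 and 30.8 RPKM in control. Knockout 2 was low and the other 3 libraries ranged from 30.8 to 43.3 RPKM. The log2 fold change of -0.32 (standard error 0.37, limma adjusted p 0.679) became 0.21 without knockout 2.

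**Figure D4:**
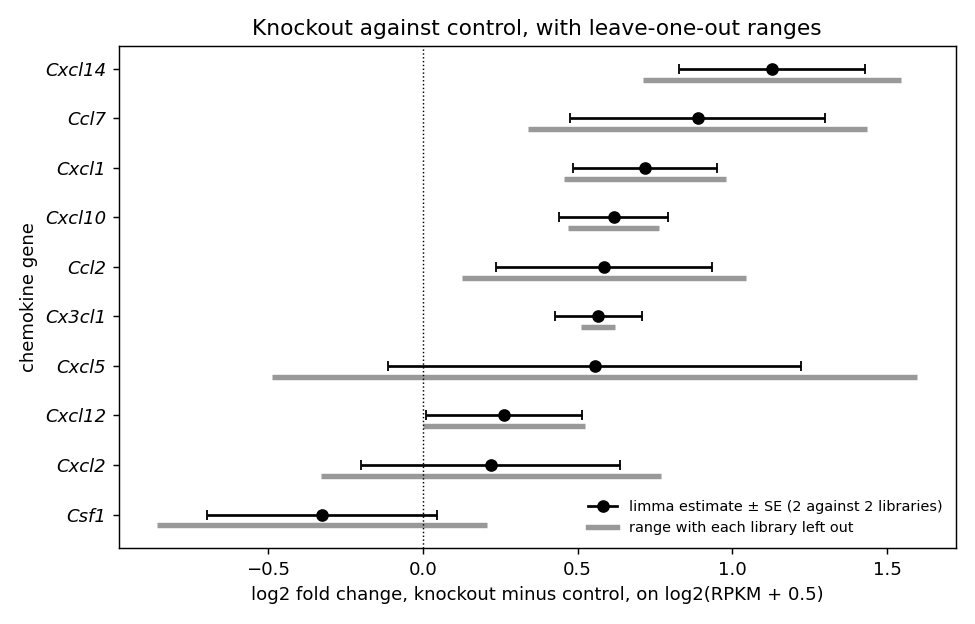
Log2 fold change, knockout minus control, for the 10 genes (rows), with limma standard errors in black and the range over the 4 fits that leave out a library in grey. The grey bars of Cxcl2, Cxcl5 and Csf1 cross 0, and those of the other 7 genes lie above 0, Cxcl12 reaching down to 0.00048.

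Of 24 chemokine and CSF1 receptor genes, 10 were measured, and 5 of these were at or near 0. Ccr2, the receptor of Ccl2 and Ccl7, had 0 and 0.00952 RPKM in knockout and 0.0202 and 0 RPKM in control, from 1 read in the knockout group and 3 reads in the control group. Cx3cr1 had 0.0207 and 0.0163 RPKM in knockout and 0.0115 and 0.0256 RPKM in control. Csf1r had 0.119 and 0.0872 RPKM in knockout, against 0.194 and 0.294 RPKM in control. Ccr1 had 0 reads in both knockout libraries and 7 and 2 reads in the control libraries. Cxcr2 and Cxcr3 were not analysed here.

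The most abundant receptor was Ackr3, with Cxcr4, Ackr1 and Ccrl2 next. Ackr3, an atypical receptor that takes up Cxcl12 without G-protein signalling (chromosome 1, 90203980 to 90216751), had 313 and 328 RPKM in knockout, against 177 and 144 RPKM in control. The groups were far apart relative to their spread, with means of 320 ± 10.4 RPKM in knockout and 160 ± 23.3 RPKM in control (SD, n = 2 each). Its log2 fold change of 1.003 (standard error 0.16, limma adjusted p 0.133) was not called, while the authors' deposited q-value was 0.000697. It was 0.85 without control 2 and 0.77 when the libraries were scaled by the reads listed.

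Cxcr4, the signalling receptor of Cxcl12, had 27.0 and 27.0 RPKM in knockout, against 29.8 and 26.6 RPKM in control. Its log2 fold change was -0.061 (standard error 0.14), or 0.021 without control 1. The ratio of Ackr3 to Cxcr4 within a library was 11.6 and 12.2 in knockout and 5.93 and 5.42 in control. Ccrl2, an atypical receptor that presents chemerin, had 20.9 and 20.5 RPKM in knockout, against 12.9 and 11.9 RPKM in control, with a log2 fold change of 0.71 (standard error 0.14, limma adjusted p 0.153). Its deposited q-value in the authors' table was 0.592. Ackr1, which binds many inflammatory chemokines and is listed under its older symbol Darc, had 27.0 and 31.7 RPKM in knockout and 29.6 and 21.8 RPKM in control, and Ackr2, a scavenger of CC chemokines, had 1.13 and 1.47 RPKM in knockout and 2.20 and 1.36 RPKM in control. Of the 10 receptors 0 were called by limma, the median log2 fold change was -0.01, and by the authors' deposited q-value 1 was higher (Ackr3) and 1 lower (Ccr1). Over all genes 3.59% were higher and 4.26% lower by that q-value.

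**Figure D5:**
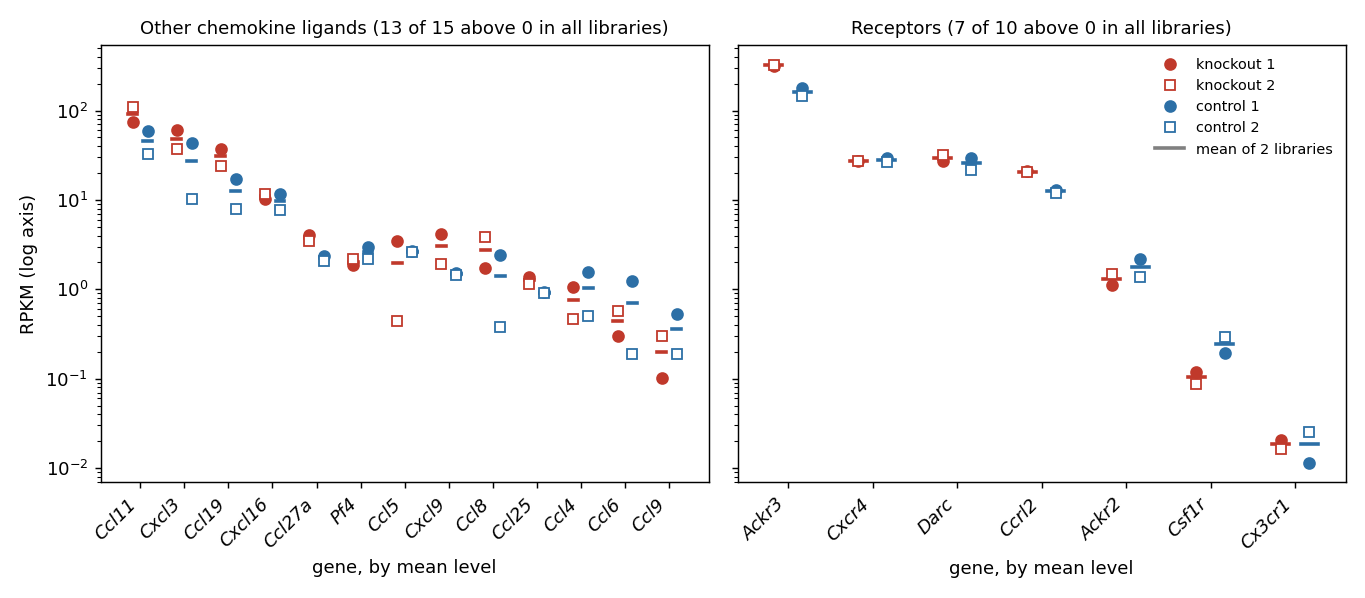
RPKM (log axis) in each library of other chemokine ligands (left panel) and of chemokine and CSF1 receptors (right panel), for the genes above 0 in all 4 libraries, knockout in red left of control in blue. Ackr3 stands highest among the receptors with 313 and 328 RPKM in knockout and 177 and 144 RPKM in control, and Csf1r and Cx3cr1 lie below 0.3 RPKM.

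Of 29 other chemokine ligands 15 were measured, 0 were called by limma, 5 had both knockout values above both control values and 0 below (25.0% and 26.2% of all genes), and the median log2 fold change was 0.20. The 3 most abundant were Ccl11 and Cxcl3, described above, and Ccl19, a ligand of Ccr7. Ccl19 had 37.5 and 24.0 RPKM in knockout, against 17.3 and 7.96 RPKM in control, with a log2 fold change of 1.32 (standard error 0.39, limma adjusted p 0.203). Ccl19 was the 1 ligand of this list higher in the authors' deposited table (q-value 0.00954), where 3.59% of all genes were. Of its 50-base words 52.0% occur in other annotated genes, among them Ccl19 pseudogenes, so its value is uncertain. Without control 2 its log2 fold change was 0.78.

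Receptors and factors that induce chemokine genes were also measured. Of 18 cytokine and pattern receptor genes 17 were in the table, with 0 called by limma, 6 of them with both knockout values above both control values and 2 below (25.0% and 26.2% of all genes), and a median log2 fold change of 0.12. The most abundant were the tumour necrosis factor receptor Tnfrsf1a (317 and 301 RPKM in knockout, 254 and 194 RPKM in control), Il17ra (109 and 122 RPKM in knockout, 124 and 120 RPKM in control) and the Toll-like and interleukin-1 receptor adaptor Myd88 (120 and 180 RPKM in knockout, 84.6 and 82.2 RPKM in control). Myd88, with a limma adjusted p of 0.186, was the 1 gene of this list higher in the authors' deposited table (q-value 0.00226), where 3.59% of all genes were.

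All 15 NF-kappa-B genes were measured and 0 were called by limma or in the authors' deposited table, with a median log2 fold change of 0.06. Both knockout values were above both control values in 4 and below in 3 (25.0% and 26.2% of all genes). Nfkbia, the inhibitor that NF-kappa-B induces against itself, had 1135 and 1613 RPKM in knockout, against 840 and 745 RPKM in control, and its groups did not overlap. The subunit gene Rela had 378 and 420 RPKM in knockout and 368 and 337 RPKM in control, and the cofactor gene Bcl3 had 138 and 261 RPKM in knockout and 127 and 148 RPKM in control.

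Immediate-early genes respond to dissociation and stress, and their mean levels ran between 6.54 RPKM for Egr3 and 2321 RPKM for Egr1. All 19 were measured, 0 were called by limma, 13 had both knockout values above both control values and 1 below (25.0% and 26.2% of all genes), and the median log2 fold change was 0.57 beside -0.01 over all genes. By the authors' deposited q-value 3 were higher (Junb, Dusp1 and Btg2) and 0 lower, where 3.59% and 4.26% of all genes were. The most abundant were the transcription factor genes Egr1 (2097 and 3384 RPKM in knockout, 1515 and 2289 RPKM in control), Junb (1756 and 3026 RPKM in knockout, 1177 and 1439 RPKM in control) and Fos (1986 and 2264 RPKM in knockout, 1325 and 1214 RPKM in control). Their part in the chemokine values was not tested.

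Leukocytes and other cells of muscle also make these ligands. Of 9 macrophage and monocyte markers 9 were measured, with a summed level of 29.8 and 46.9 RPKM in knockout and 38.9 and 33.0 RPKM in control, ranges that overlapped. Cd14 had 16.1 and 24.6 RPKM in knockout and 19.0 and 12.6 RPKM in control, highest in knockout 2 and lowest in control 2 as Ccl2 and Ccl7 were. The other macrophage and monocyte markers did not have that order, and the share of all genes with it was not computed. Lyz2 had 4.62 and 13.0 RPKM in knockout and 11.1 and 10.6 RPKM in control, Cd68 lay between 5.15 and 7.18 RPKM, and C1qa and C1qb lay between 0.819 and 2.60 RPKM. The remaining 4, Csf1r, Adgre1, Ptprc and Itgam, were each below 0.3 RPKM. Of 5 neutrophil markers 1 was measured, Csf3r, at or below 0.0358 RPKM and at 0 in library 2 of each group. Endothelial markers (6 of 6) summed to 41.3 and 66.5 RPKM in knockout and 57.7 and 78.3 RPKM in control, and fibro-adipogenic markers (6 of 8) to 672 and 405 RPKM in knockout and 627 and 619 RPKM in control. Within the fibro-adipogenic list Col1a1 was the 1 gene of the table that limma called, with 12.5 and 12.6 RPKM in knockout and 67.0 and 73.4 RPKM in control (adjusted p 0.0385). Col3a1 had 204 and 96.1 RPKM in knockout and 294 and 323 RPKM in control. Dpt, by contrast, had 323 and 124 RPKM in knockout and 131 and 117 RPKM in control. Dcn had 51.1 and 83.7 RPKM in knockout and 76.6 and 48.8 RPKM in control. Like Cd14, Dcn was highest in knockout 2 and lowest in control 2, the order of Ccl2 and Ccl7. The other markers measured from this list did not have that order. Ly6a, whose values are given above, is also on this list and was higher in knockout without overlap. Lum had 4.93 and 8.36 RPKM in knockout and 10.7 and 7.78 RPKM in control, with overlapping groups. Tenocyte markers (3 of 3) summed to 15.8 and 31.8 RPKM in knockout and 26.2 and 18.3 RPKM in control, with knockout 2 highest and knockout 1 lowest. The 3 markers differed: Tnmd was highest in control 1 and Scx in knockout 2, and Mkx had both knockout values above both control values. Mural markers (5 of 5) summed to 163 and 237 RPKM in knockout and 341 and 494 RPKM in control, of which Acta2 gave 148 and 205 RPKM in knockout and 321 and 474 RPKM in control. The other 4 mural markers did not share that order: Pdgfrb had both knockout values above both control values, and Rgs5, Myh11 and Cspg4 overlapped. Schwann cell markers (2 of 3) summed to 4.32 and 10.8 RPKM in knockout and 11.0 and 13.2 RPKM in control. Myofibre markers (5 of 6) summed to 47.9 and 44.7 RPKM in knockout and 159 and 620 RPKM in control, so control 2, the library lowest in most of the chemokines, was the highest in fibre transcripts. Acta1 gave most of the control sums, with 36.5 and 31.9 RPKM in knockout and 144 and 455 RPKM in control. Tnnt3 had 4.18 and 5.86 RPKM in knockout and 5.58 and 70.1 RPKM in control. Ckm had 3.39 and 2.93 RPKM in knockout and 3.63 and 39.4 RPKM in control. For Tnnt3, Pvalb and Ckm, control 1 was thus far nearer to the knockout libraries than to control 2. The part of these other cells in the chemokine values was not tested, and in bulk RNA fewer cells of a type and less RNA per cell cannot be told apart.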

How the data were processed

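RNA of sorted muscle stem cells was sequenced in 2 knockout and 2 control libraries, from 10 ng of RNA by a full-length template-switching protocol, per the labels. The tools named in the submitters' processing notes are Trim Galore, STAR, featureCounts and edgeR, with mm10 (GRCm38) as the build; their versions and settings were not stated. The deposited values behaved as RPKM, because multiplying by gene length gave whole reads in each library (100% of values within 0.01 reads). The q-value per gene is the authors' deposited comparison, and its model was not stated. Columns starting Ct were matched to control and Fl to knockout, by prefix and number.

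From the RPKM, limma 3.58.1 (R 4.3.3) with a mean-variance trend was fitted to log2(RPKM + 0.5) over 11603 genes, with a genotype term and Benjamini-Hochberg adjustment over all genes. Fold changes on this scale are understated for low genes. The fit was tested on simulated data with the same spread for every gene and no difference between libraries beyond depth. That setting need not match the real libraries, so the test says nothing on what was missed here. List symbols were matched directly or through RefSeq synonyms, and transcripts and overlaps were taken from GENCODE M21. The members and lists were chosen with earlier results of these data known. Every member is named, as is every receptor but 1 that is not reported here, and of each other list the 3 most abundant; Adam10, Cxcl9, Art3, single cell type markers and genes called in the authors' table were named after their values were seen. Alternatives changed the pseudocount, a CPM filter, the scaling, the trend, the test and the libraries.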

Additional observations from a re-analysis of the deposited data

How the results depend on the processing

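Under the 12 alternatives, 112 of 120 fold changes of the 10 genes kept their direction and side of the threshold, and 7 genes kept their direction throughout. The CPM filter, the fit without the trend and the replicate block leave the fold change itself unchanged. Direction could not turn under those settings, so the count says less than its size. The exceptions in direction were Cxcl2 (-0.017 scaled by the reads listed, -0.33 to 0.77 with a library left out), Cxcl5 (-0.49 to 1.60) and Csf1 (-0.86 to 0.21), and among 21 other genes Rela (-0.060 scaled by the reads listed) and Cxcr4 (-0.14 to 0.021 with a library left out). Over all genes limma-voom on recovered reads called 3 higher and 8 lower, and limma without the trend called 0 lower. With a library left out 0 to 1 genes were called higher and 0 lower, where the lone library of a group is assumed to vary like the others. With a replicate block 591 of all 11603 genes were called higher and 413 lower. Of the 10 genes 3 were then called higher: Cxcl14, Cxcl10 and Cx3cl1, with limma adjusted p values of 0.0182, 0.0317 and 0.0408. Over the alternatives the adjusted p ranged from 0.0182 to 0.672 for Cxcl14, 0.0317 to 0.677 for Cxcl10 and 0.0408 to 0.672 for Cx3cl1. Of the other 21 genes 9 passed under the block: Ackr3, Ccrl2, Ccl19, Myd88, Irf7, Isg15, Bst2, Ctsl and Tnfsf9. These 21 were taken from lists chosen with earlier results of these data known. Library 1 minus library 2 correlated at 0.403 between the groups across 11170 genes, and genes are not independent samples. The labels do not say that a shared number marks a litter, batch or day, and the samples may share only a number. With 2 libraries a group, 2 residual degrees of freedom limit what can be called.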

Other observations

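Other secreted signals were measured beside the chemokines. Of 20 other cytokine genes 15 were in the table, 0 were called by limma, 6 had both knockout values above both control values and 1 below (25.0% and 26.2% of all genes), and the median log2 fold change was 0.38 beside -0.01 over all genes. The most abundant were Mif, the macrophage migration inhibitory factor (283 and 320 RPKM in knockout, 225 and 261 RPKM in control), Clcf1, a cytokine of the interleukin-6 family (242 and 241 RPKM in knockout, 272 and 255 RPKM in control), and Il6 (40.3 and 64.9 RPKM in knockout, 46.7 and 33.1 RPKM in control). Il6 followed the order of Ccl2 and Ccl7, with knockout 2 highest and control 2 lowest, whereas Mif and Clcf1 did not. The share of all genes with that order was not computed. Tnfsf9, the ligand of 4-1BB, was the 1 gene of this list higher in the authors' deposited table, where 3.59% of all genes were. It had 24.7 and 47.1 RPKM in knockout, against 15.0 and 13.0 RPKM in control, and its limma adjusted p was 0.177. Csf3, the growth factor of neutrophils, was named after its values were seen and had 38.5 and 51.1 RPKM in knockout and 57.9 and 36.6 RPKM in control.

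Of 8 proteases that shed or trim chemokines 7 were measured, 0 were called by limma, 1 had both knockout values above both control values and 4 below (25.0% and 26.2% of all genes), and the median log2 fold change was -0.21. The most abundant were the lysosomal protease gene Ctsl (1076 and 880 RPKM in knockout, 532 and 441 RPKM in control) and the matrix metalloproteinase genes Mmp2 (203 and 143 RPKM in knockout, 202 and 255 RPKM in control) and Mmp14 (57.6 and 48.0 RPKM in knockout, 58.3 and 60.8 RPKM in control). Ctsl, with a limma adjusted p of 0.152, was the 1 protease higher in the authors' deposited table (q-value 0.00393), where 3.59% of all genes were. Adam10, which sheds Cx3cl1, had 7.87 and 7.98 RPKM in knockout, against 10.1 and 10.9 RPKM in control. Among 10 measured genes listed for the decay or stability of AU-rich transcripts, such as those of chemokines, 0 were called by limma and the median was 0.05. By the authors' deposited q-value Zfp36l1 was higher and Tia1 lower, where 3.59% and 4.26% of all genes were. Zfp36 (tristetraprolin) had 1223 and 2056 RPKM in knockout and 1115 and 1230 RPKM in control, Zfp36l1 had 168 and 250 RPKM in knockout and 132 and 124 RPKM in control, and Zfp36l2 had 112 and 84.7 RPKM in knockout and 87.8 and 71.0 RPKM in control.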
